A study of Mus musculus with 48 samples.

Results

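Messenger RNA of the whole striatum was compared between mice given MPTP, a toxin that kills dopamine neurons, and mice given vehicle. The comparison used 8 input libraries of the 48 in the series, 4 from MPTP mice and 4 from vehicle mice, taken by the condition and RNA type in their labels, and covered all 15601 genes that passed the filter on low counts among 24060 gene symbols.

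All 8 libraries came from adult mice of the C57 strain. In every mouse, vehicle mice included, an adeno-associated virus (AAV) had brought Rpl22 with an epitope tag into astrocytes of the striatum, 3 weeks ahead of RNA extraction (RiboTag, which lets the ribosome-bound RNA of 1 cell type be pulled out of a lysate). Input is RNA of the cleared lysate before that pull-down, so it holds all cells of the striatum, although the labels of these libraries tag the tissue as astrocytes. MPTP was given as 4 doses of 20 mg/kg. The labels name the striatum as the injection site but scale the dose to body weight, which leaves the route unclear, and the interval between MPTP and tissue collection and the extent of dopamine neuron loss were not given. The other libraries used for comparison were the astrocyte pull-down (IP) libraries of MPTP and vehicle mice, input libraries of SAPAP3 knockout and wild-type mice, and input libraries of R6/2 mice, a Huntington's disease model, with the designer receptor hM4Di or a control cargo, at 4 per group.

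MPTP is turned into its toxic form by monoamine oxidase B, largely in glia. This product enters dopamine neurons through the dopamine transporter and blocks complex I of the respiratory chain. The cell bodies of these neurons lie in the midbrain and only their axons reach the striatum, so striatal RNA mostly comes from the cells that receive dopamine: direct pathway medium spiny neurons, which carry the D1 receptor, and indirect pathway neurons, which carry the D2 receptor and the enkephalin precursor. Glucocorticoids, the stress hormones of the adrenal cortex, act through a nuclear receptor that binds DNA at glucocorticoid response elements and raises genes such as Tsc22d3, Sgk1, Fkbp5 and Zbtb16. Brain endothelial cells form the blood-brain barrier, and pericytes and smooth muscle cells (mural cells) line them.

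Library totals were 30251394 to 35746386 counts in MPTP libraries and 33788106 to 38983930 counts in vehicle libraries, overlapping between groups (two-sided p = 0.171 by exact permutation of 4 against 4; the smallest p this design allows is 0.0286). The labels do not say that each library came from a separate mouse beyond naming different animals in the titles, so p-values measure the spread between these libraries. MPTP replicate 1 stood apart from the other libraries: on the first principal component, which held 41.3% of the variance, it lay at 31.2, while the other 3 MPTP libraries lay at -6.63 to -5.59 and the vehicle libraries at -15.5 to 11.3. Among the 40 genes with the largest loadings on this component were the cytotoxic granule enzymes Gzma and Gzmb and the chemokines Ccl2, Cxcl10 and Cxcl11, together with the cell division genes Ube2c and Bub1 and the DNA repair gene Neil3. The lysates held striatal markers at high levels. Penk, the enkephalin precursor, averaged 925 ± 15.6 FPKM in MPTP and 1001 ± 121 FPKM in vehicle libraries (SD, n = 4 each; FPKM is a level per gene length and library total), and astrocyte, oligodendrocyte, microglial and vascular markers were all present.

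No gene passed a Benjamini-Hochberg adjusted p of 0.05 in edgeR's quasi-likelihood test of MPTP against vehicle (0 of 15601, 0%). An unadjusted p under 0.05 was reached by 1289 genes (8.26%), of which 502 were higher (3.22% of all tested) and 787 lower (5.04%) in MPTP libraries. With 1 library left out this number lay between 798 without vehicle replicate 1 and 1633 without MPTP replicate 1. DESeq2 called 68 of the 9248 genes it gave an adjusted p (0.735%), 15 higher (0.162%) and 53 lower (0.573%). Where only a DESeq2 adjusted p is printed for a gene below, edgeR did not call that gene. Without MPTP replicate 1, edgeR called 2 genes, both glucocorticoid-responsive and both higher: Plin4 and Tsc22d3. The 4 MPTP values and the 4 vehicle values did not overlap for 259 genes that were higher (1.66%) and 408 that were lower (2.62%). The median log2 fold change of all genes was 0.01, with 53.8% of genes above 0 and 46.2% below.

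**Figure D1:**
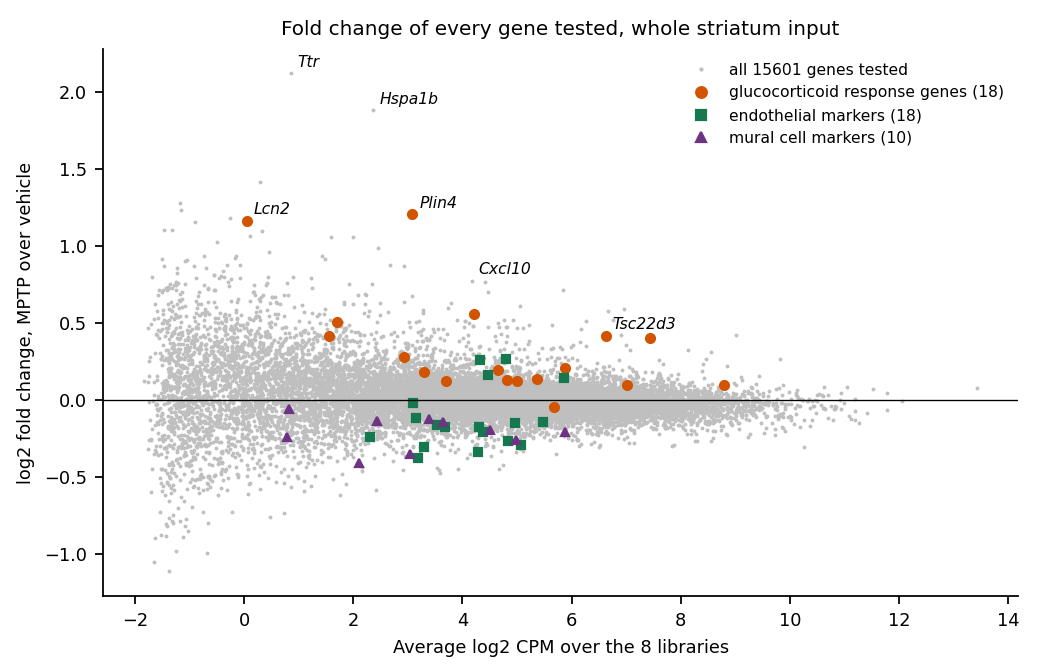
Log2 fold change of MPTP over vehicle in input (vertical axis) against average log2 CPM (library-scaled counts) over the 8 libraries (horizontal axis) for the 15601 genes tested (grey), with glucocorticoid response genes, endothelial markers and mural cell markers coloured. Plin4 lies at 1.21, while all 10 mural cell markers lie below 0.

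Plin4, the gene with the smallest p, belongs to the glucocorticoid response genes. The start regions of 4 genes of this list are shown here because these genes had higher mean levels in MPTP libraries and 1 of the regions holds the receptor's full binding element. The sequences run from 250 bases before the transcription start site to 50 bases after it, 5′ to 3′ on the gene's strand, from RefSeq on GRCm38.p6. Capitals mark AGAACA, an arm of the glucocorticoid response element, on either strand (TGTTCT is the same arm on the opposite strand).
Plin4, chr17:56109733-56110032, minus strand: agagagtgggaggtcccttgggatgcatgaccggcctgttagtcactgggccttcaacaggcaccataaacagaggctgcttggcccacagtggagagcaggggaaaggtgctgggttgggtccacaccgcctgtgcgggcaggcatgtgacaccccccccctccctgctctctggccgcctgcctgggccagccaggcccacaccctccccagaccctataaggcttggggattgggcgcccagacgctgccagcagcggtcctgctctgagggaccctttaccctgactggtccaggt
Tsc22d3, chrX:140600473-140600772, minus strand: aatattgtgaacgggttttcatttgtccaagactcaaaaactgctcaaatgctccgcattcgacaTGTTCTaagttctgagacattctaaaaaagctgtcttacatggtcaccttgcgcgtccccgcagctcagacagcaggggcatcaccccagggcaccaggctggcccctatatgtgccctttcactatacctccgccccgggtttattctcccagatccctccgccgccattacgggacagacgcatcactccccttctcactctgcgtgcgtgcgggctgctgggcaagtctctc
Sgk1, chr10:21993640-21993939, plus strand: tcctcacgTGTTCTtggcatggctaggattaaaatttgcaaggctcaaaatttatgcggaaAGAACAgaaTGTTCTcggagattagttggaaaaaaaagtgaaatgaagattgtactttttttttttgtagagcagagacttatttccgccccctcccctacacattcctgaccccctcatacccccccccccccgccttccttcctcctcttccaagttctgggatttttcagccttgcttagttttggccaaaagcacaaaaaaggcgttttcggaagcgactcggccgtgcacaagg
Fkbp5, chr17:28486100-28486399, minus strand: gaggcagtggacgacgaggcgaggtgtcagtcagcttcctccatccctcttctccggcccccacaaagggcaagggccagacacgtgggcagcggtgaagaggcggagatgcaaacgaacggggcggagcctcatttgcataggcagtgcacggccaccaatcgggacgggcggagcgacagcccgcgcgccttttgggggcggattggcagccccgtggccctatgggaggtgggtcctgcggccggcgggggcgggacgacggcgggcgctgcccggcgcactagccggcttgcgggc
The windows of Tsc22d3 and Sgk1 are 1 of 3 and 1 of 6 in the RefSeq table for these genes, chosen as those with the most such arms. The Sgk1 window holds AGAACA and TGTTCT with 3 bases between them, the full element, at 189 to 175 bases before the start site, and a further arm at 242 to 237 bases. The full element was present in 3 of 32851 windows of all genes (0.00913%), and AGAACA was in 6233 of them (19.0%) on either strand, those with the full element included. Over the 27 windows of the 17 glucocorticoid response genes with an entry, 5 held AGAACA (18.5%), close to the share of all genes, and 1 held the full element (3.70%). The arm in the Tsc22d3 window lies at 185 to 180 bases before the start site, and the windows of Plin4 and Fkbp5 hold none of these letters, which says nothing of elements elsewhere.

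Of 18 glucocorticoid response genes 17 were above 0 in MPTP striatum, with a median log2 fold change of 0.20, against 0.01 for all genes tested. Members of this list and of those that follow were chosen with earlier results of these data known. Counts over a list therefore describe it and do not test it. An unadjusted p under 0.05 in the higher direction was reached by 11 of the 18, against 3.22% of all genes, and 4 of the 18 had groups that did not overlap, against 1.66%. The 11 became 8 without MPTP replicate 2 or vehicle replicate 1, against 614 of 15592 and 319 of 15601 genes. They became 12 without MPTP replicate 1 or vehicle replicate 3, against 709 of 15601 and 496 of 15590 genes. The mean log2 CPM of the list, relative to the vehicle mean, was 0.29, 0.42, 0.38 and 0.27 in MPTP replicates 1 to 4, against -0.09, 0.02, 0.10 and -0.04 in vehicle replicates 1 to 4. Every MPTP library was above every vehicle library. In bulk tissue, more cells of a type and more RNA per cell cannot be told apart, here and in the lists that follow. None of the 18 passed the edgeR adjustment, and DESeq2 called 3, against 0.735% of all genes to which it gave an adjusted p.

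Plin4, which encodes a protein of the lipid droplet surface and lies on chromosome 17 (56100591 to 56109803 in mm10, minus strand), had the smallest p of all genes. It was at 8.40, 14.8, 11.7 and 12.3 CPM in MPTP replicates 1 to 4, against 4.63, 6.37, 4.62 and 4.84 CPM in vehicle replicates 1 to 4. The lowest MPTP library, replicate 1, was still above the highest vehicle library, replicate 2. The log2 fold change was 1.21 ± 0.16 (SE) with an edgeR adjusted p of 0.139, and 1.33 with an adjusted p of 0.000978 when MPTP replicate 1 was left out; across settings the adjusted p ran between this value and 0.844. DESeq2 gave Plin4 no adjusted p.

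Tsc22d3, the glucocorticoid-induced leucine zipper, which damps inflammatory signalling, was at 93.1, 117, 120 and 121 CPM in MPTP libraries and at 88.4, 89.1, 87.7 and 73.2 CPM in vehicle libraries. The groups did not overlap, and MPTP replicate 1 lay closest to the vehicle libraries. It was higher by 0.42 ± 0.09 on the log2 scale (SE; edgeR adjusted p = 0.468, DESeq2 adjusted p = 0.00188). Sgk1, a kinase that regulates ion channels and transporters, was at 221, 210, 158 and 205 CPM in MPTP libraries and at 143, 155, 162 and 138 CPM in vehicle libraries, so 3 of the 4 MPTP libraries exceeded all vehicle libraries and replicate 3 fell within their range. It was higher by 0.41 ± 0.09 on that scale (SE; edgeR adjusted p = 0.485, DESeq2 adjusted p = 0.00563). Fkbp5, a co-chaperone that lowers the receptor's affinity for its hormone, was at 61.2, 68.4, 63.1 and 58.0 CPM in MPTP libraries and at 53.3, 56.4, 54.8 and 52.7 CPM in vehicle libraries, with no overlap. Its fold change was smaller, at 0.21 ± 0.05 on the log2 scale (SE; edgeR adjusted p = 0.509, DESeq2 adjusted p = 0.052). Zbtb16, a zinc finger transcription factor, was at 20.1, 25.5, 24.0 and 19.0 CPM in MPTP libraries and at 16.2, 19.0, 14.2 and 10.9 CPM in vehicle libraries. The groups met at 19.0 CPM, where MPTP replicate 4 and vehicle replicate 2 lay, and the log2 fold change was 0.56 ± 0.15 (SE; DESeq2 adjusted p = 0.031).

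**Figure D2:**
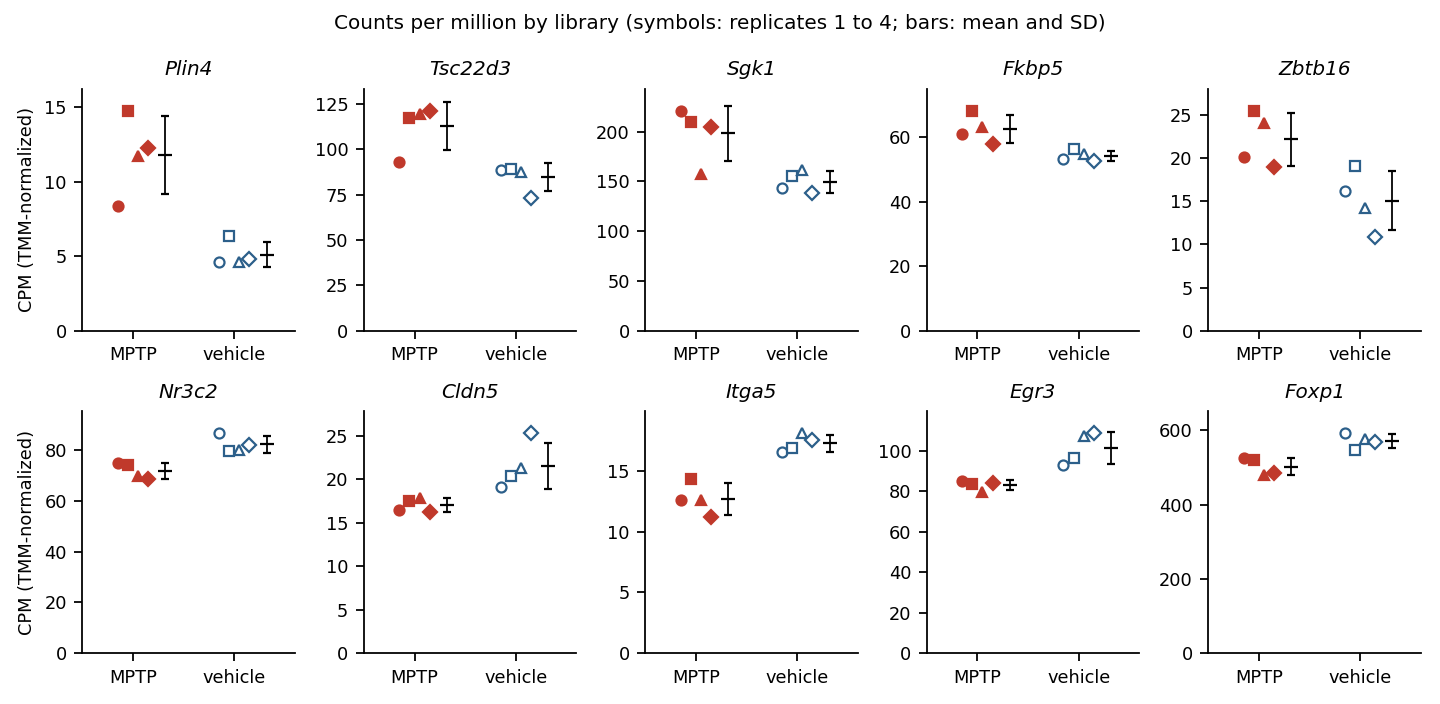
CPM (vertical axes, from 0) of 10 genes in the 4 MPTP libraries (filled) and the 4 vehicle libraries (open), with the mean and SD of each group beside the points and 1 symbol per replicate number. Plin4, Tsc22d3 and Fkbp5 are higher in all MPTP libraries, and Nr3c2, Cldn5, Itga5, Egr3 and Foxp1 are lower in all of them, while Sgk1 and Zbtb16 overlap.

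The receptors of these hormones were not higher. Nr3c1, the glucocorticoid receptor, differed by -0.06 ± 0.05 (SE), with 190 to 207 CPM in MPTP and 185 to 218 CPM in vehicle libraries. Nr3c2, the mineralocorticoid receptor, was at 75.0, 74.0, 69.7 and 68.6 CPM in MPTP libraries and at 86.8, 79.8, 80.3 and 82.1 CPM in vehicle libraries. All 4 MPTP libraries were below all vehicle libraries, by -0.20 ± 0.05 on the log2 scale (SE; edgeR adjusted p = 0.495, DESeq2 adjusted p = 0.031). Hsd11b1, the enzyme that regenerates active glucocorticoid inside cells, had a log2 fold change of 0.07 ± 0.09 (SE). Lcn2, a secreted iron-binding protein of reactive astrocytes that was in the glucocorticoid list and in the reactive astrocyte list, had a log2 fold change of 1.16 ± 0.43 (SE) at a low level of 0.77 to 1.71 CPM in MPTP and 0.21 to 1.19 CPM in vehicle libraries, and 1.06 without MPTP replicate 1.

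Most vascular markers had values below 0 in MPTP over vehicle, and none passed the edgeR adjustment. All 10 mural cell markers were below 0, with a median log2 fold change of -0.20, and 5 of them had an unadjusted p under 0.05 in the lower direction, against 5.04% of all genes, which became 2 without MPTP replicate 2, vehicle replicate 3 or vehicle replicate 4. The list mean was -0.14, -0.23, -0.24 and -0.21 in MPTP libraries, against -0.07, -0.08, 0.07 and 0.08 in vehicle libraries, so every MPTP library was below every vehicle library. The summed level of the list was 141 to 149 CPM in MPTP and 160 to 178 CPM in vehicle libraries. Vtn, the adhesion protein vitronectin, which in the brain is made by pericytes, was at 55.8, 53.8, 55.7 and 52.8 CPM in MPTP libraries and at 61.9, 59.9, 64.4 and 65.5 CPM in vehicle libraries, without overlap (-0.21 ± 0.04, SE; edgeR adjusted p = 0.468, DESeq2 adjusted p = 0.0131). Rgs5, a regulator of G protein signalling in pericytes, did not overlap either, at 26.4 to 32.5 CPM in MPTP and 32.6 to 35.8 CPM in vehicle libraries (-0.26 ± 0.07, SE). The smooth muscle genes Acta2 (-0.41 ± 0.16, SE) and Tagln (-0.35 ± 0.14, SE) overlapped between groups.

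Of the 18 endothelial markers 14 were below 0, with a median of -0.17; 7 had an unadjusted p under 0.05 in the lower and 2 in the higher direction, against 5.04% and 3.22% of all genes. The higher 2, chosen after their values were seen, were the lipid transporter Mfsd2a (0.26 ± 0.10, SE; edgeR adjusted p = 0.54) and the glucose transporter Slc2a1 (0.14 ± 0.06, SE; edgeR adjusted p = 0.576), both overlapping between groups. Slco1a4, an organic anion transporter of the blood-brain barrier, was at 31.9, 29.4, 30.8 and 28.9 CPM in MPTP libraries and at 38.4, 38.0, 38.4 and 33.5 CPM in vehicle libraries. Its groups did not overlap, although vehicle replicate 4 lay well below the other vehicle libraries (-0.29 ± 0.06, SE; edgeR adjusted p = 0.468, DESeq2 adjusted p = 0.00676). Cldn5, the main tight junction protein of the barrier, was at 16.5, 17.6, 17.9 and 16.3 CPM in MPTP libraries and at 19.2, 20.4, 21.3 and 25.3 CPM in vehicle libraries, again without overlap (-0.34 ± 0.08, SE; DESeq2 adjusted p = 0.042). Kdr, the receptor of vascular endothelial growth factor, had a log2 fold change of -0.37 ± 0.11 (SE), with MPTP replicate 1 at 9.61 CPM inside the vehicle range of 9.48 to 10.8 CPM and the other 3 MPTP libraries at 6.83 to 7.76 CPM. The endothelial list mean of MPTP replicate 1, 0.04, was within the vehicle range of -0.05 to 0.07, whereas the other MPTP libraries were at -0.14, -0.17 and -0.24. Without that library the median was -0.23 and 11 of 18 markers had an unadjusted p under 0.05 in the lower direction. Of all 15601 genes 917 did so in the same setting. The number of markers was 8 without vehicle replicate 1, against 473 of 15601 genes. It fell to 5 without MPTP replicate 3 or 4, against 600 and 506 of 15601 genes. Without vehicle replicate 3 or 4 it was also 5, against 719 of 15590 and 657 of 15588 genes. Meningeal and fibroblast markers had a median of -0.07, with 8 of 9 below 0. Outside the lists, the fibronectin receptor subunit Itga5 had the second smallest p, at 12.6, 14.3, 12.6 and 11.2 CPM in MPTP libraries and 16.6, 16.8, 18.1 and 17.6 CPM in vehicle libraries (-0.44 ± 0.08, SE; DESeq2 adjusted p = 0.00188). The membrane-bound carbonic anhydrase Car4, at 3.74 to 4.75 CPM in MPTP and 5.25 to 6.95 CPM in vehicle libraries, was also lower (-0.59 ± 0.12, SE; edgeR adjusted p = 0.468).

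**Figure D3:**
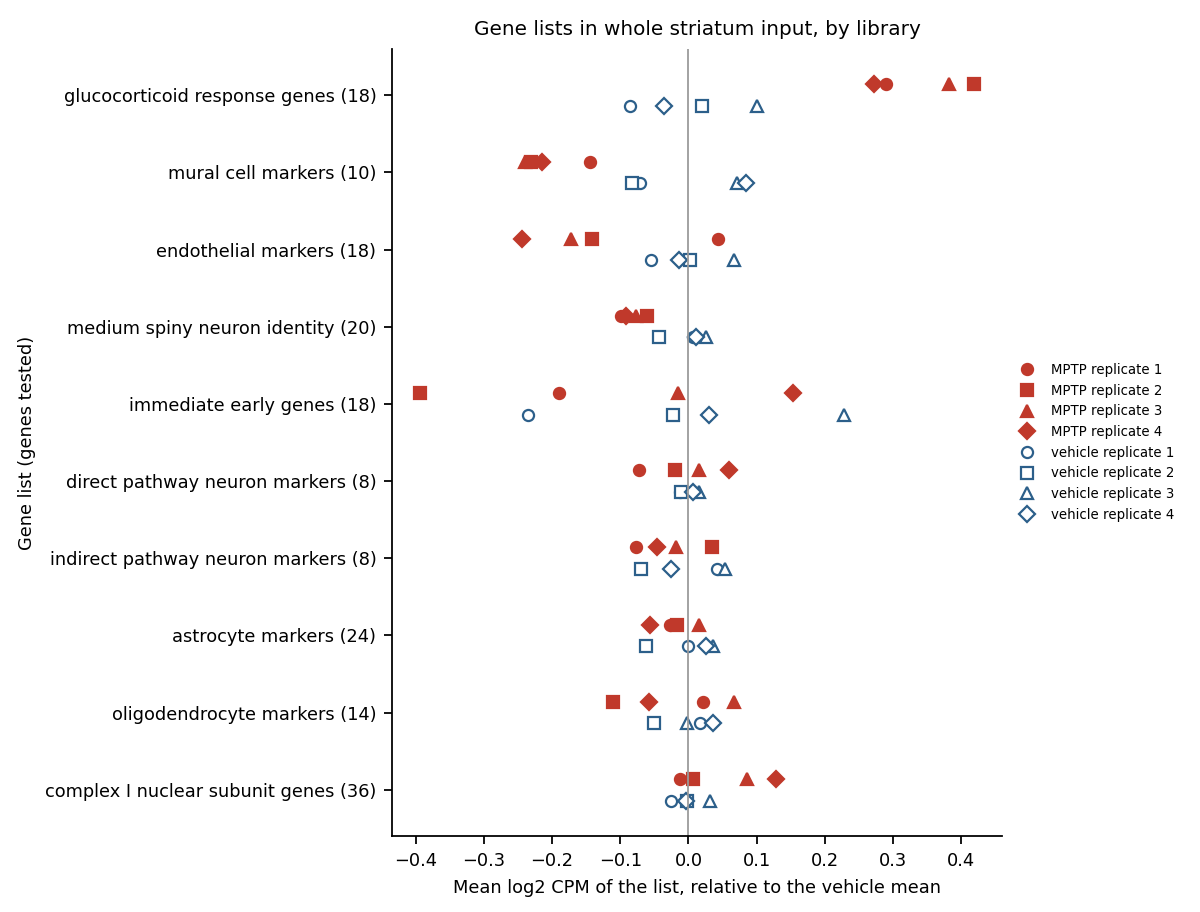
Mean log2 CPM of each gene list relative to the vehicle mean (horizontal axis) in the 4 MPTP libraries (filled) and the 4 vehicle libraries (open), with the number of genes tested in brackets. The glucocorticoid list is higher and the mural and medium spiny neuron identity lists are lower in all 4 MPTP libraries, while MPTP replicate 1 lies among the vehicle libraries for endothelial markers.

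Genes of the dopamine neuron gave no difference beyond the spread of the libraries. Th, tyrosine hydroxylase, the first enzyme of dopamine synthesis, was at 7.91, 6.71, 7.08 and 6.93 CPM in MPTP libraries and at 6.16, 6.37, 8.03 and 7.82 CPM in vehicle libraries, fully overlapping (0.01 ± 0.11, SE; edgeR adjusted p = 0.989). Slc6a3, the dopamine transporter, was near the limit of detection at 0.19 to 0.33 CPM in MPTP and 0.24 to 0.44 CPM in vehicle libraries (-0.31 ± 0.32, SE). Slc18a2, the vesicular monoamine transporter, was at 0.59 to 1.22 CPM in MPTP and 0.54 to 0.82 CPM in vehicle libraries, and Ddc, the next enzyme after Th, differed by -0.01 ± 0.08 (SE). Aldh1a1, an aldehyde dehydrogenase of a subset of dopamine neurons that other cells also express, was the member of the list with an unadjusted p under 0.05 (-0.15 ± 0.06, SE; edgeR adjusted p = 0.576), and its groups overlapped. Of the 12 genes in the list 7 were tested; Chrna6, Pitx3, En1, Foxa2 and Lmx1b did not pass the filter on low counts, and Foxa2 was listed at 0 in all 8 libraries. Such levels leave these libraries little to say on dopamine axons. Among genes of MPTP activation and uptake, Maob, monoamine oxidase B, was at 24.7 to 25.3 CPM in MPTP and 21.1 to 26.1 CPM in vehicle libraries (0.06 ± 0.07, SE). Slc22a3, an organic cation transporter, was at 6.79, 5.79, 7.34 and 6.35 CPM in MPTP libraries and 8.79, 8.96, 7.35 and 8.07 CPM in vehicle libraries (-0.34 ± 0.10, SE; edgeR adjusted p = 0.512). Its groups were separate only by the small gap between MPTP replicate 3 and vehicle replicate 3.

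Pathway markers of the target neurons of dopamine overlapped between groups, while most of the broader identity genes of medium spiny neurons had small values below 0. Drd1a, the D1 receptor gene, averaged 158 ± 5.69 FPKM in MPTP and 158 ± 4.34 FPKM in vehicle libraries, and Tac1, the substance P precursor of the same neurons, averaged 231 ± 17.2 FPKM in MPTP and 225 ± 14.0 FPKM in vehicle libraries (SD, n = 4 each). Drd2 averaged 86.8 ± 3.31 FPKM in MPTP and 91.9 ± 4.67 FPKM in vehicle libraries (log2 fold change of counts -0.10 ± 0.05, SE). Penk was at 1270 to 1337 CPM in all 4 MPTP libraries, and the vehicle libraries spread wider, at 1310, 1237, 1603 and 1538 CPM (-0.13 ± 0.07, SE; edgeR adjusted p = 0.665). Direct pathway markers had a median of 0.00 (4 of 8 above 0) and indirect pathway markers of -0.05 (2 of 8 above 0). In the direct list 1 member had an unadjusted p under 0.05 in each direction, against 3.22% of all genes higher and 5.04% lower. Sfxn1, a mitochondrial serine transporter, was at 86.5 to 105 CPM in MPTP and 76.3 to 86.7 CPM in vehicle libraries (0.20 ± 0.06, SE; edgeR adjusted p = 0.512), and the orphan transporter Slc35d3 was at 60.0 to 69.8 CPM in MPTP and 64.1 to 75.8 CPM in vehicle libraries (-0.15 ± 0.06, SE; edgeR adjusted p = 0.573).

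Of 20 medium spiny neuron identity genes 19 were below 0 with a median of -0.07, and the list mean was -0.10, -0.06, -0.08 and -0.09 in MPTP libraries against 0.01, -0.04, 0.03 and 0.01 in vehicle libraries. The groups did not overlap, but the gap between MPTP replicate 2 and vehicle replicate 2 was small. An unadjusted p under 0.05 was reached by 6 of the 20, all lower, against 5.04% of all genes. Kcnab1, a subunit of voltage-gated potassium channels, was at 527, 551, 575 and 546 CPM in MPTP libraries and at 695, 702, 603 and 598 CPM in vehicle libraries, below in every MPTP library (-0.24 ± 0.06, SE; edgeR adjusted p = 0.509, DESeq2 adjusted p = 0.0152). Foxp1, a transcription factor of striatal projection neurons, was at 525, 519, 480 and 485 CPM in MPTP libraries and at 593, 546, 577 and 569 CPM in vehicle libraries, also without overlap (-0.19 ± 0.04, SE; DESeq2 adjusted p = 0.0152). Adcy5, the adenylyl cyclase downstream of both dopamine receptors, was at 1608 to 1758 CPM in MPTP and 1777 to 1914 CPM in vehicle libraries (-0.13 ± 0.04, SE). Of 15 dopamine receptor signalling genes tested 13 were below 0 (median -0.06), and of 12 pan-neuronal markers 11 were (median -0.06), so small negative values were not limited to spiny neuron genes. Nefm, a neurofilament subunit among the pan-neuronal markers, was at 66.1 to 83.7 CPM in MPTP and 83.2 to 96.0 CPM in vehicle libraries (-0.28 ± 0.07, SE; DESeq2 adjusted p = 0.0466).

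Immediate early genes, which neurons switch on within minutes of activity, were mostly below 0 (16 of 18; median -0.08), but the libraries of both groups spread widely, from -0.39 to 0.15 in MPTP and from -0.24 to 0.23 in vehicle libraries. Without MPTP replicate 2 the median was 0.00 and 9 of 18 were above 0, and without MPTP replicate 4 it was -0.23. Egr3 had the smallest p of the list and was at 84.9, 83.4, 79.5 and 84.0 CPM in MPTP libraries and at 93.2, 96.2, 107 and 109 CPM in vehicle libraries. The MPTP libraries were tightly grouped below all vehicle libraries (-0.29 ± 0.05, SE; edgeR adjusted p = 0.468, DESeq2 adjusted p = 0.00188). Egr1 was at 76.6 to 90.3 CPM in MPTP and 88.6 to 116 CPM in vehicle libraries, with MPTP replicate 4 just above the lowest vehicle library (-0.30 ± 0.08, SE; DESeq2 adjusted p = 0.031). Among all genes, the lower ones with the smallest p and separate groups also held Pcdhac2, a clustered protocadherin (-0.24 ± 0.05, SE), Sema7a, a membrane-anchored semaphorin (-0.22 ± 0.04, SE), Srgap1, an actin regulator downstream of Slit and Robo (-0.22 ± 0.04, SE), the kinase Sik2 (-0.23 ± 0.05, SE) and the cytoplasmic actin Actg1 (-0.21 ± 0.04, SE), each called by DESeq2. Ntrk3, the receptor of neurotrophin 3, was at 135 to 146 CPM in MPTP and 155 to 162 CPM in vehicle libraries (-0.16 ± 0.04, SE; DESeq2 adjusted p = 0.0294). The higher ones included Sdc4, a heparan sulfate proteoglycan of the cell surface, at 132, 126, 126 and 131 CPM in MPTP libraries and 107, 114, 116 and 114 CPM in vehicle libraries (0.19 ± 0.04, SE; DESeq2 adjusted p = 0.00466). Smim3 (0.39 ± 0.08, SE), the sorting nexin Snx1 (0.19 ± 0.04, SE), Nde1 (0.25 ± 0.05, SE), Endod1 (0.21 ± 0.05, SE), the ribosomal protein gene Rplp2 (0.24 ± 0.06, SE), Anln (0.22 ± 0.05, SE) and Dbndd2 (0.14 ± 0.04, SE) were higher in all 4 MPTP libraries than in any vehicle library. Of these 8, DESeq2 called all but Smim3, for which it gave no adjusted p.

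Interferon and other immune genes were highest in 1 MPTP library rather than raised across the group, and vehicle replicate 2 was the next highest library. All 21 interferon response genes were above 0 with a median of 0.42, but none had an unadjusted p under 0.05, and without MPTP replicate 1 only 1 of 21 was above 0 and the median was -0.07. The list mean was 1.39 in MPTP replicate 1 and -0.05, -0.33 and 0.21 in the other MPTP libraries, against -0.58, 0.45, 0.05 and 0.08 in vehicle libraries, where replicate 1 was lowest and replicate 2 highest. Cxcl10, a chemokine that draws T cells, was at 56.9, 12.4, 7.31 and 15.3 CPM in MPTP libraries and at 7.35, 18.3, 12.9 and 14.7 CPM in vehicle libraries (0.77 ± 0.52, SE; -0.20 without MPTP replicate 1). Ifit3, an antiviral effector, was at 315 CPM in MPTP replicate 1 and at 69.1 to 118 CPM in the other MPTP libraries, against 55.7 to 137 CPM in vehicle libraries. In both genes the other 3 MPTP libraries lay inside the vehicle range or within 1 CPM of it.

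The same library was highest for antigen presentation (list mean 1.01, against -0.38 to -0.09 in the other MPTP libraries), for inflammatory cytokines and chemokines (1.08, against -0.14 to 0.28) and for peripheral immune cell markers (0.87, against -0.06 to 0.14). Vehicle replicate 2 was the next highest library in each of these lists, at 0.70, 0.35 and 0.39. The other vehicle libraries lay at -0.41 to -0.03, -0.39 to 0.13 and -0.20 to -0.06. The median of antigen presentation was 0.16 with 6 of 10 genes above 0, and -0.32 with 0 of 10 above 0 without MPTP replicate 1. The median of cytokines and chemokines was 0.45 with 12 of 14 above 0, and -0.02 with 6 of 14 above 0 without that library. Of the 12 peripheral immune cell markers 9 were tested, and their summed level was 111 CPM in MPTP replicate 1 and 72.3 to 81.9 CPM in the other MPTP libraries, against 79.5 to 88.6 CPM in vehicle libraries. Their median was 0.26 with 7 of 9 above 0, and -0.05 with 2 of 9 above 0 without MPTP replicate 1. Ccr2, the receptor that brings monocytes into tissue, was at 11.5 CPM in MPTP replicate 1, against 2.04 to 3.12 CPM in the other MPTP libraries and 2.03 to 5.38 CPM in vehicle libraries. Microglial markers had a median of 0.07 with 14 of 17 above 0, against -0.01 with 8 of 17 above 0 without MPTP replicate 1, and their list mean in MPTP replicate 1 was 0.30, next to 0.23 in vehicle replicate 2. Aif1, the microglial calcium-binding protein, was at 13.5 to 26.6 CPM in MPTP and 12.5 to 22.5 CPM in vehicle libraries. Peripheral immune cell markers and interferon genes were thus high in the same library, and the part of immune cells in the result was not tested.

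Reactive astrocyte genes were above 0 in 13 of 13 with a median of 0.39, but MPTP replicate 1 again led, with a list mean of 1.08 against 0.26, 0.07 and 0.24 in the other MPTP libraries and -0.28 to 0.19 in vehicle libraries. Without it the median was 0.09 and 8 of 13 were above 0. Gfap, the intermediate filament that marks reactive astrocytes, was at 595, 315, 377 and 385 CPM in MPTP libraries and at 289, 404, 332 and 319 CPM in vehicle libraries (0.31 ± 0.16, SE; edgeR adjusted p = 0.64; 0.09 without MPTP replicate 1). Only MPTP replicate 1 exceeded all vehicle libraries. The 24 astrocyte markers had a median of -0.02 and list means of -0.06 to 0.02 in MPTP and -0.06 to 0.04 in vehicle libraries. Among them Slc7a10, a neutral amino acid transporter, was at 15.1 to 18.1 CPM in MPTP and 17.3 to 21.8 CPM in vehicle libraries (-0.26 ± 0.08, SE; edgeR adjusted p = 0.512).

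**Figure D4:**
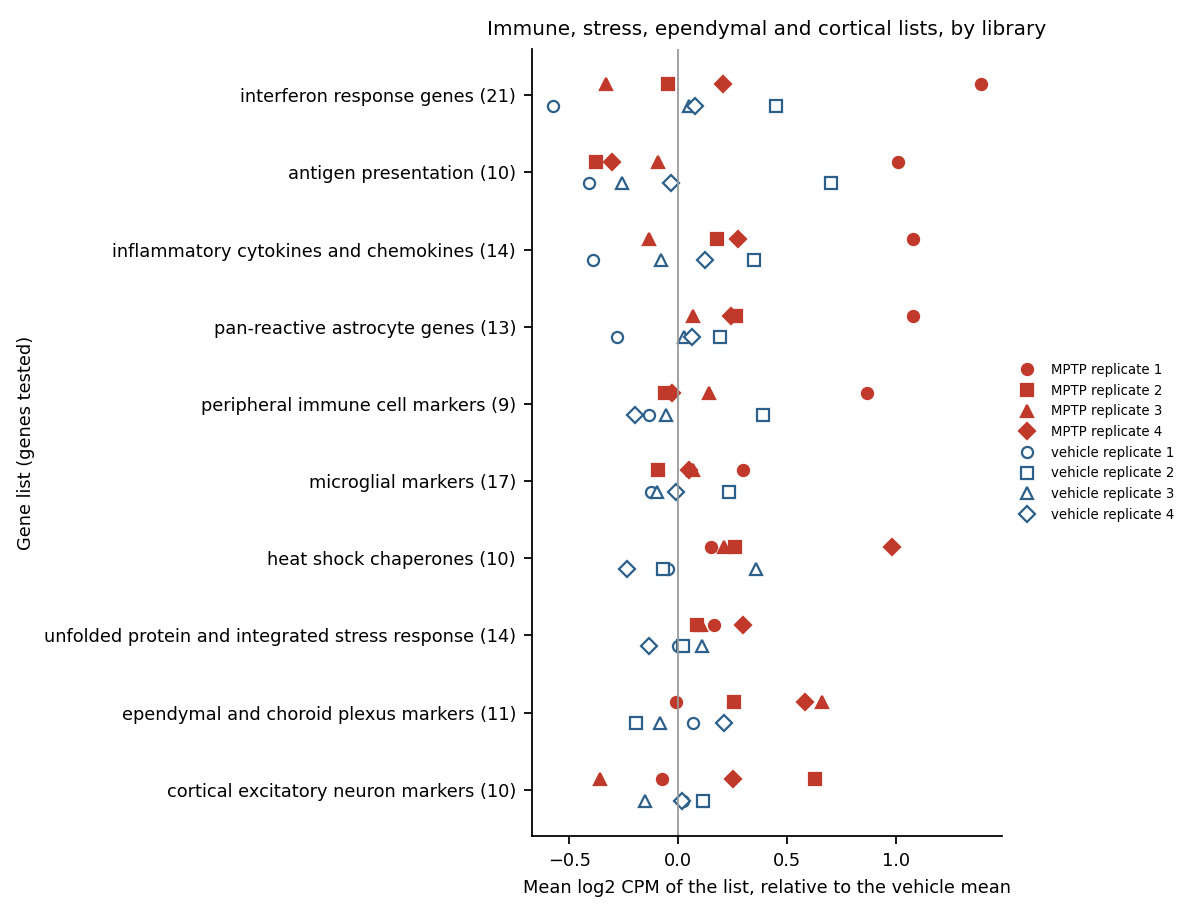
Mean log2 CPM of 10 further lists relative to the vehicle mean (horizontal axis) in the 4 MPTP libraries (filled) and the 4 vehicle libraries (open). MPTP replicate 1 is highest for the interferon, antigen, cytokine, reactive astrocyte and peripheral immune lists, MPTP replicate 4 for heat shock chaperones, and MPTP replicates 3 and 4 for ependymal and choroid plexus markers.

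Protein folding stress genes were mostly above 0, with no member called by edgeR, and MPTP replicate 4 was the highest library. Heat shock chaperones were above 0 in 10 of 10 with a median of 0.21, and the list mean was 0.98 in MPTP replicate 4 and 0.15, 0.26 and 0.21 in MPTP replicates 1 to 3, against -0.05, -0.07, 0.36 and -0.24 in vehicle libraries. Vehicle replicate 3 was above 3 of the 4 MPTP libraries. Hspa1b, the inducible form of the HSP70 chaperone, was at 3.67, 4.69, 3.04 and 21.2 CPM in MPTP libraries and at 1.49, 1.52, 5.11 and 0.74 CPM in vehicle libraries; vehicle replicate 3 thus exceeded 3 of the 4 MPTP libraries (1.88 ± 0.67, SE; edgeR adjusted p = 0.535; 0.79 without MPTP replicate 4). Reads of Hspa1b and its near-identical copy Hspa1a may be split between them by the counting. Hspa8, the constant form, was at 886 to 1194 CPM in MPTP and 774 to 913 CPM in vehicle libraries (0.26 ± 0.09, SE). Unfolded protein and integrated stress response genes were above 0 in 11 of 14 with a median of 0.14, and 5 had an unadjusted p under 0.05 in the higher direction, against 3.22% of all genes, which became 3 without MPTP replicate 4 or without vehicle replicate 1, 2 or 4. Pdia4, a disulfide isomerase of the endoplasmic reticulum, was at 134, 131, 128 and 181 CPM in MPTP libraries and at 108, 116, 125 and 97.7 CPM in vehicle libraries, without overlap (0.36 ± 0.11, SE; edgeR adjusted p = 0.512; 0.23 without MPTP replicate 4). Without MPTP replicate 4 the median of the heat shock list was 0.11, with 7 of 10 above 0, and that of the unfolded protein list 0.08.

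Nuclear genes of complex I, the enzyme MPTP's product inhibits, were above 0 in 33 of 36 with a median of 0.05 and 0 members called by edgeR or DESeq2. The list mean was -0.01, 0.01, 0.09 and 0.13 in MPTP libraries and -0.03, 0.00, 0.03 and 0.00 in vehicle libraries, so the 2 lowest MPTP libraries lay within the vehicle range. Without MPTP replicate 4 the median was 0.03 and 25 of 36 were above 0. Oxidative stress response genes had a median of 0.01, with Hmox1, which breaks down heme, at 11.0 to 14.3 CPM in MPTP and 7.86 to 11.4 CPM in vehicle libraries (0.33 ± 0.12, SE; edgeR adjusted p = 0.535). Mitochondrially encoded genes were not analysed here.

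Clock genes lay on both sides of 0. Of 16, 4 had an unadjusted p under 0.05 in the higher and 2 in the lower direction, against 3.22% and 5.04% of all genes. Without MPTP replicate 1 these were 8 and 1, against 709 and 917 of all 15601 genes. Without MPTP replicate 4 they were 2 and 2, against 356 and 506 of 15601. Without vehicle replicate 2 they were also 2 and 2, against 569 and 737 of 15592. Per3, a repressor arm gene of the clock, was at 48.2, 54.3, 52.8 and 52.6 CPM in MPTP libraries and at 48.4, 45.7, 43.1 and 44.2 CPM in vehicle libraries (0.20 ± 0.05, SE; edgeR adjusted p = 0.512), with only MPTP replicate 1 below a vehicle library. Per2 (0.25 ± 0.09, SE) and Ciart (0.33 ± 0.12, SE) were also higher, and the activator Arntl (-0.15 ± 0.06, SE) and the repressor Nr1d1 (-0.20 ± 0.05, SE) lower. Per1, which also belongs to the glucocorticoid list, was the member of that list below 0. The labels give no time of day for tissue collection.

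Markers of neighbouring tissue varied between MPTP libraries. Ependymal and choroid plexus markers were above 0 in 11 of 11 with a median of 0.28, and their list mean was -0.01, 0.26, 0.66 and 0.58 in MPTP libraries against 0.07, -0.19, -0.08 and 0.21 in vehicle libraries. The median was 0.17 without MPTP replicate 3 and 0.16 without MPTP replicate 4. Ttr, transthyretin, which the choroid plexus makes in large amounts, was at 0.23, 3.51, 5.75 and 1.79 CPM in MPTP libraries and at 0.36, 0.47, 0.57 and 1.18 CPM in vehicle libraries (2.12 ± 0.66, SE; edgeR adjusted p = 0.512). The lowest of all 8 libraries was an MPTP library, and the other 3 exceeded all vehicle libraries. Cortical excitatory neuron markers had a median of 0.27, with list means of -0.07, 0.63, -0.36 and 0.25 in MPTP and -0.15 to 0.11 in vehicle libraries; the MPTP libraries bracketed the vehicle ones. The median was 0.01, with 5 of 10 above 0, without MPTP replicate 2 and 0.43 without MPTP replicate 3. Slc17a7, the cortical vesicular glutamate transporter, was at 31.7, 63.0, 22.0 and 48.8 CPM in MPTP libraries and at 24.6 to 38.6 CPM in vehicle libraries. Cplx3, a complexin, was at 4.35 to 7.33 CPM in MPTP and 2.39 to 4.11 CPM in vehicle libraries (0.68 ± 0.20, SE; edgeR adjusted p = 0.512). The part of tissue taken at dissection in the differences of other lists was not tested.

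Cells of the oligodendrocyte line differed little as a group. Oligodendrocyte markers had a median of -0.02, with Ermn, a cytoskeletal protein of myelin, higher (0.19 ± 0.08, SE) and Opalin, a myelin membrane protein, lower (-0.20 ± 0.08, SE). The precursor list had a median of -0.02, and 3 of 10 genes were at an unadjusted p under 0.05 in the higher direction, against 3.22% of all genes, which became 1 without MPTP replicate 3 or vehicle replicate 1 or 2. Gpr17, a receptor of precursors about to differentiate, was at 66.4, 77.1, 75.4 and 75.9 CPM in MPTP libraries and at 69.4, 57.4, 67.8 and 61.0 CPM in vehicle libraries (0.21 ± 0.07, SE; edgeR adjusted p = 0.527), and Olig2, the transcription factor of the line, had 0.19 ± 0.08 (SE). In Gpr17 only MPTP replicate 1 lay within the vehicle range. Cholesterol synthesis genes had a median of 0.01, complement genes of 0.20 (-0.03 without MPTP replicate 1), striatal interneuron markers of -0.01 and neurotrophic genes of 0.12. Genes of dopamine breakdown had a median of 0.01. Of 5 red blood cell genes 1 was tested.

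The astrocyte pull-down of the same experiment was set against the whole lysate to ask where the MPTP effect differed by fraction. The titles name the same animal for both fractions except in MPTP replicate 2. The fit used group means, so the SE and p-values of the differences below do not use this pairing. With the replicate within each condition as a block, edgeR called 0 genes, and 1822 had an unadjusted p under 0.05. No gene passed the test of the difference between the input effect and the IP effect in edgeR (0 of 15862, 0%), with 7.98% of genes at an unadjusted p under 0.05 and 55 called by DESeq2 (0.533%). The glucocorticoid list had a median of 0.20 in input and 0.26 in IP. Plin4 had a log2 fold change of 1.21 ± 0.16 in input and 1.45 ± 0.26 in IP (SE), a difference of -0.24 ± 0.33 (edgeR adjusted p = 0.887), and Sgk1 had 0.41 ± 0.09 in input and 0.76 ± 0.19 in IP (difference -0.34 ± 0.23, adjusted p = 0.736). Medium spiny neuron identity genes had a median of -0.07 in input and 0.12 in IP, and Egr3 had -0.29 ± 0.05 in input and 0.01 ± 0.13 in IP (difference -0.29 ± 0.15, SE; edgeR adjusted p = 0.677). Complex I genes had a median of 0.05 in input and -0.08 in IP. The smallest p of the difference belonged to Gyk, glycerol kinase (0.33 ± 0.06, SE; edgeR adjusted p = 0.296).

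Input libraries of the other experiments showed which of these values also appeared without MPTP. The glucocorticoid list had a median of 0.20 for MPTP, 0.21 for SAPAP3 knockout and -0.03 for hM4Di in R6/2 mice. Plin4 was at 1.51 ± 0.53 in SAPAP3 knockout over wild type and -0.47 ± 0.29 in hM4Di over control cargo (SE), and its MPTP effect minus these was -0.33 ± 0.58 (edgeR adjusted p = 0.893) and 1.68 ± 0.58 (unadjusted p = 0.00791, edgeR adjusted p = 0.809 over all genes). Endothelial markers had a median of -0.17 for MPTP, -0.30 for SAPAP3 knockout and 0.19 for hM4Di. Mural cell markers had a median of -0.20 for MPTP, -0.18 for SAPAP3 knockout and 0.13 for hM4Di. Slco1a4 had an MPTP effect minus hM4Di effect of -0.55 ± 0.12 (SE; unadjusted p = 0.00017, edgeR adjusted p = 0.294). Medium spiny neuron identity genes had a median of -0.07 for MPTP, -0.28 for SAPAP3 knockout and 0.04 for hM4Di.

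Genes that passed the tests of a difference between experiments were few. The MPTP effect minus the SAPAP3 knockout effect called 1 of 16166 genes by edgeR (0.00619%; 8.36% at an unadjusted p under 0.05, and 0.0866% called by DESeq2), Dlgap3 itself, the gene removed in the knockout (1.06 ± 0.13, SE; edgeR adjusted p = 0.000431). The MPTP effect minus the hM4Di effect called 3 (0.0186%; 6.05% at an unadjusted p under 0.05, and 0.0495% called by DESeq2). They were Chrm4, the muscarinic receptor gene from which hM4Di was derived (-3.12 ± 0.17, SE; edgeR adjusted p = 5.03e-11), the small GTPase gene Gem (-2.64 ± 0.24, SE; adjusted p = 1.11e-06) and the matricellular protein gene Cyr61 (-2.07 ± 0.28, SE; adjusted p = 0.000935). No gene whose MPTP value is described above as higher or lower was among them, apart from the list member Chrm4, which had a log2 fold change of 0.02 ± 0.04 (SE) in MPTP over vehicle.

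**Figure D5:**
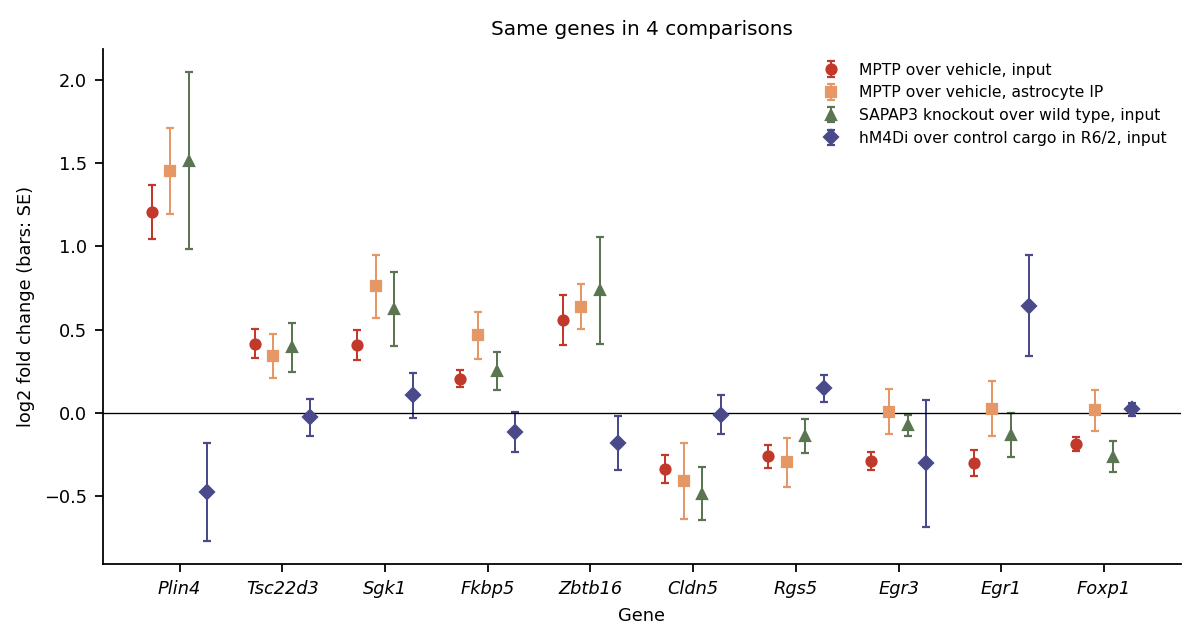
Log2 fold changes with SE bars (vertical axis) of 10 genes (horizontal axis) in MPTP over vehicle input, MPTP over vehicle IP, SAPAP3 knockout over wild-type input and hM4Di over control cargo input, with 4 libraries per group. Plin4 is at 1.21 or above in the first 3 comparisons and below 0 in the last, while Egr3 and Foxp1 are near 0 in IP and below 0 in MPTP input.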

How the data were processed

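Groups, replicate numbers, the dose and the RiboTag interval were taken from the labels. STAR, HTSeq and the build mm10 are named in the submitters' processing notes; their versions and gene annotation were not given in the sources used here, and per the labels' protocols libraries were stranded and depleted of ribosomal RNA. The deposited table holds read counts of 24060 gene symbols. The FPKM deposited by the authors, a level per gene length and library total, were used for levels between genes. Symbols in 4 rows were duplicated and are not named.

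Counts were tested in R 4.3.3 with edgeR 4.0.16: filterByExpr by group (minimum count 10), TMM scaling, the quasi-likelihood F test and Benjamini-Hochberg adjustment over all genes tested (threshold 0.05). Standard errors of log2 fold changes were derived from the F statistic. CPM were TMM-normalized. The difference between input and IP effects was a contrast in 1 fit over both fractions of the MPTP experiment. Differences from the SAPAP3 knockout and hM4Di effects were contrasts in 1 fit over all 24 input libraries. DESeq2 1.42.0, limma-voom and limma-trend (limma 3.58.1; log2 FPKM with a pseudocount of 1) were alternatives, as were scaling by relative log expression or by the upper quartile, other filters, an adjusted p of 0.1, removal of Xist and the Y-linked genes, the replicate block, all 24 input libraries together, and each library left out. Scripts were tested on simulated data.

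The 35 gene lists, the members and the tests were chosen with earlier results of these data known, so counts over a list are descriptions and no list was tested. Named genes were the full dopamine, MPTP and pathway marker lists with 5 fixed genes (Xist had no tested value), the 10 smallest p per direction with separate groups and an average log2 CPM of at least 1, the 5 largest changes per direction at an unadjusted p under 0.01, up to 5 members of each list, and the 5 smallest p of each difference; a part of them is named. Replicates of a group differed more than counting error (chi-square per degree of freedom 3.99 to 18.9). Promoter windows and symbols came from RefSeq, coordinates of genes from GENCODE M21 on GRCm38.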

Additional observations from a re-analysis of the deposited data

Results flagged for a closer look

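Of 272 groups of 4 libraries examined, 18 held a library far from the other 3 (past the 95% critical value of Dixon's ratio of gap to range). The groups covered 98 genes chosen for the text, the gene lists and library measures. They overlap and were chosen with these data known, so the rate of about 1 of 20 for independent groups does not apply. MPTP replicate 1 lay apart on the first principal component (31.2, against -6.63 to -5.59 in the other MPTP libraries) and was highest for Cxcl10 (56.9 CPM, against 7.31 to 15.3), the nucleic acid sensor Zbp1 (22.6 CPM, against 5.83 to 7.25), Ccr2 (11.5 CPM, against 2.04 to 3.12) and the filament gene Vim (106 CPM, against 59.4 to 64.5). The same library was lowest for Tsc22d3 (93.1 CPM, against 117 to 121) and Gpr17 (66.4 CPM, against 75.4 to 77.1).

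MPTP replicate 4 was highest for Hspa1b (21.2 CPM, against 3.04 to 4.69 in the other MPTP libraries), the mitochondrial chaperone Hspe1 (65.4 CPM, against 42.3 to 44.2), Pdia4 (181 CPM, against 128 to 134) and the mean of the heat shock list (0.98, against 0.15 to 0.26). It was also highest for Drd1a (595 CPM, against 551 to 553) and Ddc (10.5 CPM, against 9.35 to 9.47).

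Among vehicle libraries, replicate 2 was highest for Plin4 (6.37 CPM, against 4.62 to 4.84) and replicate 3 for Hspa1a (2.98 CPM, against 1.40 to 1.49). Vehicle replicate 4 was lowest for Tsc22d3 (73.2 CPM, against 87.7 to 89.1) and Slco1a4 (33.5 CPM, against 38.0 to 38.4), and vehicle replicate 1 for Sdc4 (107 CPM, against 114 to 116).

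The MPTP effect differed from the effect of another experiment, by the test of the difference, for Dlgap3 (1.06 against SAPAP3 knockout) and for Chrm4 (-3.12), Gem (-2.64) and Cyr61 (-2.07) against hM4Di. These values are differences between effects and not changes of MPTP over vehicle, where edgeR called none of these genes.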

How the results depend on the processing

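The count of genes called between MPTP and vehicle input was 0 in the main test and under relative log expression scaling, upper-quartile scaling, limma-voom, limma-trend, a mean CPM of at least 1, an adjusted p of 0.1, removal of Xist and the Y-linked genes, and all 24 input libraries together. It was 68 with DESeq2 and 1 (Plin4, adjusted p = 0.0368) with no filter beyond 1 read. It was 0 to 2 when 1 library was left out, the 2 without MPTP replicate 1. Alternatives added after the data were seen gave 124 with DESeq2 without MPTP replicate 1 and 1 with the replicate block without that library.

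With the replicate number as a block the count was 1 (Plin4, adjusted p = 0.0481). Deviations of libraries with the same number correlated at -0.388, -0.28, 0.00525 and -0.0303, and those with different numbers at -0.205 to 0.447. These values cannot show whether equal numbers share a litter or day, which the labels do not state. The difference between input and IP effects called 55 with DESeq2 and 0 in every other setting, the added one without MPTP replicate 2 in both fractions included. Against SAPAP3 knockout the count was 1 in the main test, 14 with DESeq2, 2 with upper-quartile scaling, limma-voom or an adjusted p of 0.1, and 1 to 2 with 1 library left out, where MPTP replicate 2 gave the 2. Against hM4Di it was 3 in the main test, 8 with DESeq2, 4 with the replicate block and 3 with 1 library left out.

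Leaving out 1 library moved the median of dopamine neuron transcripts within -0.096 to 0.00422, of dopamine breakdown within -0.0201 to 0.0317, of inflammatory cytokines and chemokines within -0.0223 to 0.64 and of neurotrophic genes within 0.0304 to 0.15. It moved antigen presentation within -0.319 to 0.348, peripheral immune cell markers within -0.0491 to 0.452, microglial markers within -0.00768 to 0.161, interferon response genes within -0.0731 to 0.639, cortical excitatory neuron markers within 0.00991 to 0.428, immediate early genes within -0.231 to -0.00262 and complex I genes within 0.0256 to 0.0693. For comparison, the glucocorticoid list stayed within 0.19 to 0.24, mural cell markers within -0.24 to -0.16 and endothelial markers within -0.23 to -0.13. Genes that changed sign with 1 library left out were Aif1 (-0.13 to 0.30), Ccr2 (-0.26 to 1.03), Cxcl10 (-0.20 to 1.08), Ifit3 (-0.0729 to 0.84) and Zbp1 (-0.0392 to 0.91), each without MPTP replicate 1, and Slc18a2 (-0.10 to 0.31), without MPTP replicate 3. Th (-0.0499 to 0.0754), Ddc (-0.0597 to 0.0457), Tac1 (-0.0205 to 0.056) and Chrm4 (-0.00295 to 0.0464) lay near 0, and Ddc was 0.00445 with limma-trend. Where a value depends on the setting, the cause was not tested.

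Counts of a few CPM, as in Slc6a3, Slc18a2, Lcn2 and Ttr, and 4 libraries per group limit what small differences these data can show. The route and time of MPTP and the lesion were not given.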

Other observations

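Genes of red blood cells gave almost no counts in these lysates: of 5 genes in the list, Hba-a1 and Hbb-bt were listed at 0 in all 8 libraries, and only the heme synthesis gene Alas2 was tested, with a list median of -0.03 in MPTP over vehicle. Globin genes have near-identical copies.

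The list of 5 corticosteroid receptor and supply genes had a median of 0.00, with 2 above 0. The transcription factor gene Cebpb, which inflammatory signals and glucocorticoids both regulate, was at 9.28, 5.98, 7.20 and 7.15 CPM in MPTP libraries and at 4.27, 5.07, 3.69 and 6.82 CPM in vehicle libraries (0.57 ± 0.18, SE; edgeR adjusted p = 0.527). Lhx8, a transcription factor of cholinergic interneurons, was at 11.4 to 11.7 CPM in MPTP and 11.9 to 14.0 CPM in vehicle libraries, without overlap (-0.16 ± 0.07, SE; edgeR adjusted p = 0.568).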
